A study of Mus musculus with 8 samples.

Results

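The vertebrate forebrain and eye arise from the anterior neural plate, which is marked by a set of transcription factors that act together with signals from its margins. Cells kept free of Wnt signalling hold an anterior identity, and several of these factors repress Wnt genes or the genes of more posterior regions. Here the 9 listed anterior neural factors were described: *Fezf1*, *Fezf2*, *Otx1*, *Otx2*, *Six3*, *Hesx1*, *Emx2*, *Lhx2* and *Rax*. They were chosen by gene symbol, with earlier results of these data known. Each had 1 transcript cluster on the array, so that 9 of the 23410 named transcript clusters were used.

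Gene expression was measured at Day 4 of N2B27 differentiation, a serum-free monolayer culture that turns ES cells into neural progenitors. All cultures came from the mouse ES line R1. The control line carries a conditional *Sox3* allele and is labelled *Sox3* positive, and the *Sox3* null line carries a GFP reporter knocked into *Sox3*. There were 4 cultures per genotype, of which replicates 1 and 2 came from batch 1 and replicates 3 and 4 from batch 2, an independent differentiation series, with 1 Affymetrix mouse gene array for each culture. Each genotype is carried by its own line, so genotype and line cannot be told apart, and whether a line was 1 clone is not given. GEO's labels describe culture on gelatine before differentiation, and the methods describe irradiated feeder fibroblasts. Values are log2 signals. They are comparable between arrays for 1 gene but not between genes. A gene is said to have passed at a Benjamini-Hochberg adjusted p of 0.05 or less from limma, over all 23410 transcript clusters, and to have been called if its fold change was also 1.4 or more. *Sox3* itself read between 9.73 and 9.92 in the control cultures and between 8.37 and 8.67 in the null cultures, a log2 fold change of -1.31 (standard error 0.08). Whether its probes lie within the altered part of the gene was not analysed here.

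*Fezf2* and *Otx2* were lower in *Sox3* null progenitors, and no member was higher at the threshold. *Fezf2* fell 1.56-fold and was called, while *Otx2* fell 1.38-fold and did not reach the fold threshold. The other 7 did not pass, and of these *Fezf1* (-0.29) and *Emx2* (0.23) had the log2 fold changes farthest from 0. Among all transcript clusters, 1.55% passed, 0.393% as lower and 1.15% as higher, against 2 of 9, 2 of 9 and 0 of 9 members. Those called made up 0.431% in both directions and 0.111% as lower, against 1 of 9 members, *Fezf2*. At an unadjusted limma p under 0.05, 4 members were lower (*Fezf1*, *Fezf2*, *Otx2* and *Lhx2*) and 1 was higher (*Emx2*), where 13.1% of all transcript clusters differed in either direction. Of the 9, 7 had a log2 fold change below 0 with a median of -0.12, where 50% of all transcript clusters lay below 0. Because the list was drawn up with earlier results of these data known, these shares do not test it as a set. In these bulk cultures, fewer cells that express a gene and less of its RNA per cell cannot be told apart.

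**Figure D1:**
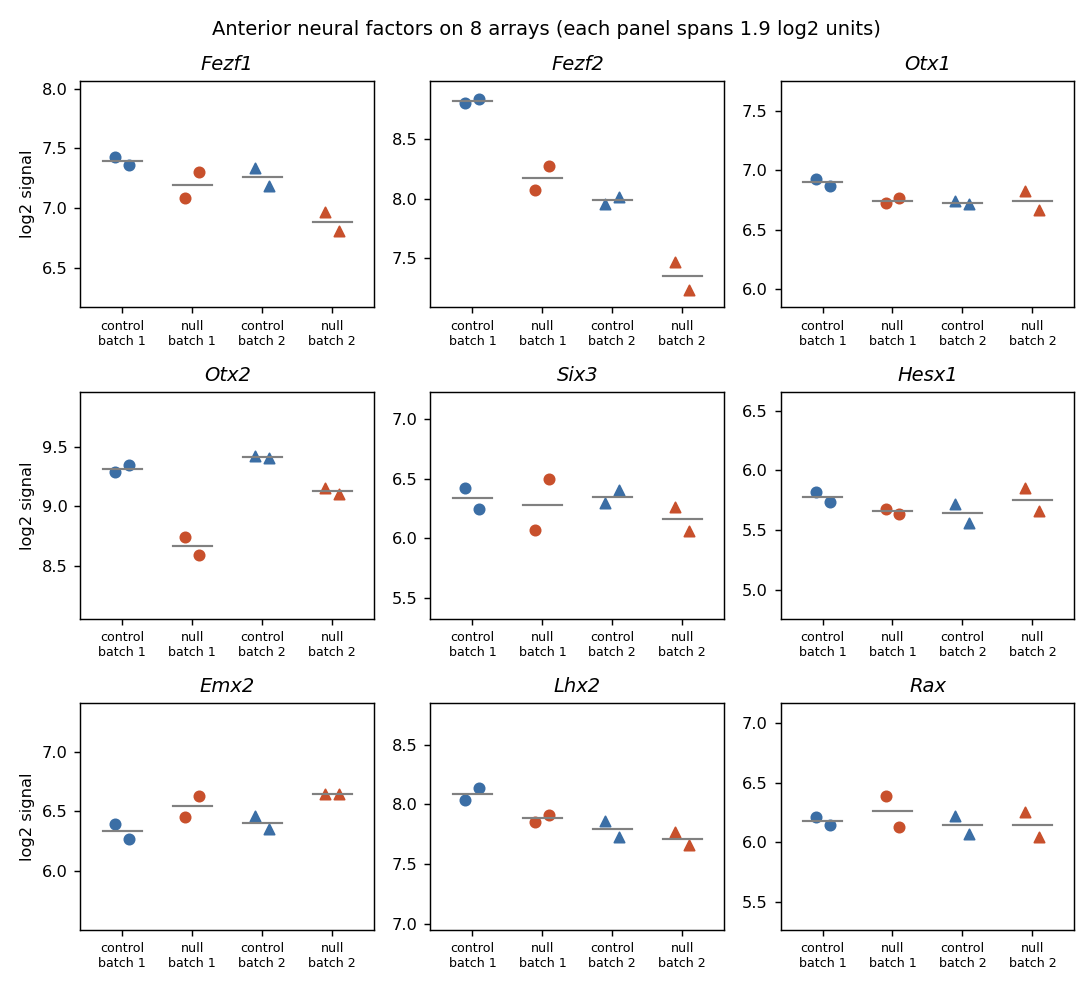
Log2 signal (vertical axis) of the 9 factors on each of the 8 arrays, by genotype and batch. Blue points are control and orange points *Sox3* null, circles are batch 1 and triangles batch 2, grey bars give the mean of 2 arrays, and all panels span the same range. *Fezf2* was lower in null than in control cultures within each batch and lower in batch 2 than in batch 1, while for *Otx2* the highest null array (9.16) lay below the lowest control array (9.29).

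*Fezf2* encodes a zinc finger repressor of the anterior neural plate that later specifies deep layer cortical neurons. Upstream of the gene, RefSeq gives 1 start site for the mouse assembly GRCm38.p6. The 250 bases before it, chr14:12345866-12346115 on the minus strand, are shown because *Fezf2* was the 1 member called, and they are written in lower case because no letters searched for were found:
*Fezf2*: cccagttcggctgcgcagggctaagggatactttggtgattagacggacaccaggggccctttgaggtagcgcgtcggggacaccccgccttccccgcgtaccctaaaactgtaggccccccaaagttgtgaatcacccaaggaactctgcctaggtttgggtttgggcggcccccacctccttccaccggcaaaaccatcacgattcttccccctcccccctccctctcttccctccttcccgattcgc
The letters searched were AACAAT and ACAAAG, which SOX proteins can bind, and TAATCC, which OTX proteins can bind, on both strands. Of 32851 mouse windows of this length, 9.42% held AACAAT, 16.5% held ACAAAG and 6.25% held TAATCC. Of the 9 members, 7 had such windows (11 in all, with 4 for *Otx2* and 2 for *Lhx2*), and *Otx1* and *Rax* had none here. Neither of the SOX motifs lay in any of the 11 windows. The search covered only these letters in these windows, so it cannot show whether SOX proteins bind at these genes, as at enhancers.

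In the control cultures *Fezf2* read 8.80 and 8.84 in batch 1 and 7.96 and 8.01 in batch 2. In the null cultures it read 8.07 and 8.28 in batch 1 and 7.47 and 7.24 in batch 2. Both null arrays were thus below both control arrays within each batch, but the null arrays of batch 1 were above the control arrays of batch 2. The log2 fold change was -0.64 (standard error 0.07, 95% interval -0.78 to -0.49, adjusted p = 9.48e-04 from limma). It was -0.65 in batch 1 and -0.63 in batch 2, and the genotype by batch term was 0.01 (95% interval -0.30 to 0.33). The difference between batches was larger than that between genotypes. *Fezf2* was lower in batch 2 than in batch 1 by a log2 difference of -0.83 (standard error 0.07, adjusted p = 4.77e-05 from limma), a 1.77-fold change. Of its variation over the 8 arrays, measured as the sum of squares, 61.2% lay between batches, 36.6% between genotypes and 2.25% between arrays of the same genotype and batch. The order of the means from high to low was therefore control in batch 1 (8.82), null in batch 1 (8.17), control in batch 2 (7.99) and null in batch 2 (7.35). Of these neighbours, null in batch 1 and control in batch 2 lay 0.06 apart at their nearest arrays, less than the gap of 0.20 between the null arrays of batch 1. With the replicate number as a block in place of batch, the call was kept (adjusted p = 0.00266 from limma). The call was lost when batch was left out or made a random block and when each batch was fitted alone. The adjusted p was 0.695 without batch, 0.216 with batch as a random block, 0.0645 in batch 1 alone and 0.0934 in batch 2 alone. In a plain linear model with the same terms and the gene's own variance it was 0.0769, and in all 8 fits that each left out 1 array (leave-one-out) it stayed at or below 0.00595.

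*Fezf1*, the paralogue of *Fezf2*, has a partly overlapping role in the early forebrain and in olfactory development. It read 7.43 and 7.36 in control and 7.09 and 7.30 in null cultures of batch 1. In batch 2 it read 7.33 and 7.18 in control and 6.97 and 6.80 in null cultures. The null arrays were below the control arrays within each batch, as for *Fezf2*, with a smaller difference. The log2 fold change was -0.29 (standard error 0.07, 95% interval -0.44 to -0.13), and it did not pass (adjusted p = 0.0847 from limma), but did without *Sox3* null replicate 2 (adjusted p = 0.0407, log2 fold change -0.35). Between batches *Fezf1* was lower in batch 2 by -0.22 (adjusted p = 0.0475 from limma). It no longer passed in 7 of the 8 leave-one-out fits (adjusted p up to 0.136), all but that without control replicate 3. It passed in 2 of 17 alternatives in all, the other being that with the rows of a symbol averaged.

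*Otx2* encodes a homeodomain factor that is needed for the forebrain and midbrain, and it is also expressed in the epiblast before the neural plate forms. RefSeq lists several start sites for the gene. The window with a match is shown, with the TAATCC letters, read as GGATTA on the strand of the gene, in capitals. They lie 211 to 206 bases before the start site at the end of chr14:48665110-48665359, on the minus strand of GRCm38.p6:
*Otx2*: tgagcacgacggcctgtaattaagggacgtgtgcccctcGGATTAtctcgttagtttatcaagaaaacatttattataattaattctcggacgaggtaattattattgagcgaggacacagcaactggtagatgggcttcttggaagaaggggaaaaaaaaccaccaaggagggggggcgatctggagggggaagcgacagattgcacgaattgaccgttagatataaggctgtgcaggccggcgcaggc
It was the 1 match to these letters among the 11 windows, where 6.25% of all windows held them. A match is not a measured binding site.

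*Otx2* read 9.29 and 9.35 in the control cultures of batch 1 and 9.43 and 9.41 in those of batch 2. The null cultures read 8.74 and 8.59 in batch 1 and 9.16 and 9.10 in batch 2. All 4 null arrays were therefore below all 4 control arrays. *Otx2* was the 1 member of which this was true, where 2.19% of all transcript clusters were separated in this direction and 4.6% in either. The log2 fold change was -0.47 (standard error 0.08, 95% interval -0.64 to -0.30, adjusted p = 0.0113 from limma). The control arrays of the batches differed little, and the null arrays of batch 1 were the lowest. The difference was -0.65 in batch 1 and -0.29 in batch 2. The genotype by batch term was 0.36 (95% interval 0.12 to 0.61), with an unadjusted p of 0.00837 and an adjusted p of 1.00 from limma over all genes, so a difference between batches was not established. The fall no longer passed without control replicate 1 (adjusted p = 0.0518, log2 fold change -0.44), when the unnamed rows were added (0.0934), with batch as a random block (0.0699) and without a batch term (0.314). In batch 1 alone the adjusted p was 0.0617, in batch 2 alone 0.431 and in the plain linear model 0.188.

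Unlike *Fezf2*, *Otx2* was higher in batch 2, by 0.28 (standard error 0.08, adjusted p = 0.0223 from limma). In the null cultures alone this difference was 0.46 (adjusted p = 0.0222) and in the control cultures alone 0.10 (adjusted p = 0.507). The batch difference no longer passed without *Sox3* null replicate 1, 2, 3 or 4 (adjusted p between 0.0564 and 0.0748). *Otx1*, the paralogue of *Otx2* with a later role in the cortex and inner ear, read 6.93, 6.87, 6.74 and 6.71 in control cultures and 6.72, 6.77, 6.82 and 6.67 in null cultures. These ranges overlap, and the log2 fold change was -0.07 (95% interval -0.20 to 0.06, adjusted p = 0.695 from limma).

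**Figure D2:**
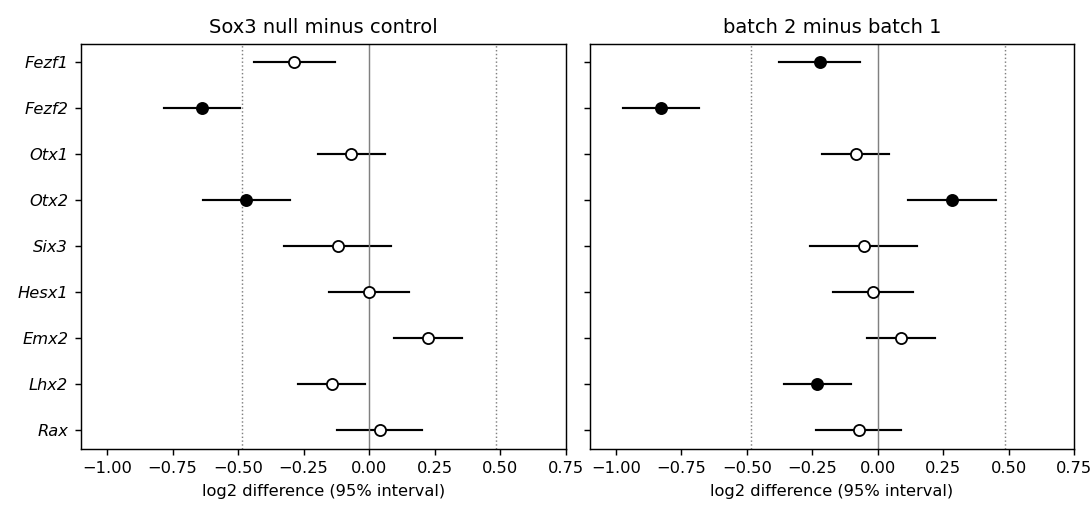
Log2 difference (horizontal axes) of *Sox3* null minus control and of batch 2 minus batch 1 for the 9 factors, from all 8 arrays. Circles are limma's estimates, filled where the adjusted p was 0.05 or less, lines are 95% intervals, and the dotted lines stand at 1.4-fold. *Fezf2* lies to the left in both panels, while *Otx2* lies at -0.47 for genotype and 0.28 for batch.

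*Lhx2*, *Emx2*, *Six3*, *Hesx1* and *Rax* act in parts of the forebrain. *Lhx2*, a LIM homeodomain gene of the cortex and eye, read 8.03, 8.14, 7.86 and 7.73 in control and 7.85, 7.92, 7.77 and 7.66 in null cultures. In batch 1 the null arrays lay below the control arrays, and in batch 2 the groups overlapped. The log2 fold change was -0.14 (95% interval -0.27 to -0.02, adjusted p = 0.316 from limma). Between batches *Lhx2* was lower in batch 2 by -0.23 (adjusted p = 0.0164 from limma). The batch difference no longer passed without control replicate 2 (adjusted p = 0.0582) and when the arrays were quantile normalised again (0.0826, log2 difference -0.17).

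*Emx2*, a homeobox gene of the dorsal telencephalon and hippocampus, read 6.40, 6.27, 6.46 and 6.35 in control and 6.45, 6.63, 6.64 and 6.65 in null cultures. It is the 1 member with the null arrays above the control arrays within each batch, although the lowest null array of batch 1 lay below the highest control array of batch 2. The log2 fold change was 0.23 (95% interval 0.10 to 0.35, adjusted p = 0.103 from limma). The difference was 0.21 in batch 1 and 0.24 in batch 2. Together with *Fezf1*, *Fezf2* and *Otx2*, 4 of the 9 members had the null arrays on the same side of the control arrays in each batch, 3 of them below. The same was found for 12.1% of all transcript clusters, with 5.04% below.

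*Six3*, which represses Wnt genes in the prospective forebrain, read from 6.25 to 6.43 in control and from 6.06 to 6.49 in null cultures, with a log2 fold change of -0.12 (95% interval -0.32 to 0.08). *Hesx1*, a homeobox repressor of the forebrain and pituitary, read from 5.56 to 5.82 in control and from 5.64 to 5.85 in null cultures, and its log2 fold change was 0.00 (95% interval -0.15 to 0.15). *Rax*, which is needed for the eye field, read from 6.07 to 6.22 in control and from 6.04 to 6.39 in null cultures, with 0.04 (95% interval -0.12 to 0.20). The genotypes overlapped for all 3 genes. For all members but *Fezf2* and *Otx2*, 7 of the 9, limma's 95% interval of the difference in signal excluded a change of 1.4-fold in either direction. *Fezf1* came nearest to it, with a lower end of -0.44, where 1.4-fold is 0.49 on the log2 scale. Intervals from the gene's own variance alone were not computed.

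How far each factor stands above background cannot be read from the deposited values, which carry no detection call. As a reference, the rows of odorant and vomeronasal receptor genes, which neural progenitors are not known to use, were taken. The upper end of the middle 95% of these rows lay between 6.34 and 6.52 on the 8 arrays. *Fezf1*, *Fezf2*, *Otx1*, *Otx2* and *Lhx2* were above it on all 8 arrays, *Emx2* on 5, *Rax* on 1 and *Six3* and *Hesx1* on none. The median of all named rows was 7.63 to 7.70 on these arrays, so most rows clear the reference. *Otx2* and *Lhx2* were above that median on all 8 arrays, *Fezf2* on 6 and the other members on 0. *Otx1* read 6.67 to 6.93, so the exclusion of a 1.4-fold change for it rests on signals near the reference. For *Six3*, *Hesx1* and *Rax* a change of the transcript may therefore not have been detectable. For *Emx2* the 5 arrays were the 4 null arrays and control replicate 3, so that its difference, and the exclusion of a 1.4-fold change, rest on control signals mostly within the reference. Of the other lists, 14 of 14 midbrain, hindbrain and spinal cord factors and 17 of 21 further forebrain and eye field factors were above it on all 8 arrays. The share of all rows above it on all 8 arrays was not counted, so these counts do not set the lists apart from other genes. Signals above this reference were thus measured for anterior and for posterior factors, as for most named rows. *Sox3* was above it on all 8 arrays too, the 4 null arrays included. The study reports no detected *Sox3* expression in its mutant samples, so a signal above the reference is not by itself a sign of expression.

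Over both batches, 3 of the 9 members passed as lower in batch 2 (*Fezf1*, *Fezf2* and *Lhx2*) and 1 as higher (*Otx2*). In all, 20.2% of transcript clusters passed for batch, 9.35% as lower and 10.9% as higher in batch 2. Past 1.4-fold as well were 2.49% of transcript clusters, 1.47% lower and 1.03% higher, and 1 of the 9 members, *Fezf2*, which was lower. Of the members, 7 had a batch difference below 0, where 49.1% of transcript clusters did. *Fezf2* was also the 1 member with all arrays of batch 2 below all arrays of batch 1, which 9.34% of all transcript clusters also had. For none of the 9 did the genotype effect differ between batches at the threshold (limma, smallest adjusted p over all genes 0.862), and for 1, *Otx2*, the unadjusted p was under 0.05, as for 3.05% of transcript clusters. What differed between the differentiation series is not given in the labels.

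Other factors of the forebrain and eye field were measured beside the members. Of 21 measured, 2 rose, none fell and 19 did not pass, with a median log2 fold change of -0.01. At an unadjusted limma p under 0.05, 4 were higher and 3 lower, 7 of 21 where 13.1% of all transcript clusters were past this p. Both that rose are orphan nuclear receptors that pattern the cortex along its axis and are also expressed in other neural tissue. *Nr2f2* rose by 0.52 (standard error 0.05, adjusted p = 9.86e-04 from limma) and *Nr2f1* by 0.41 (standard error 0.05, adjusted p = 0.00201), and both passed in all 8 leave-one-out fits. *Nr2f2* no longer passed without a batch term (adjusted p = 0.357) or with batch as a random block (0.0508). *Nr2f1* passed in both. The next smallest p-values were those of *Emx1*, the paralogue of *Emx2*, with -0.20 (adjusted p = 0.223), *Lhx5*, a LIM homeodomain gene of the anterior forebrain, with -0.23 (adjusted p = 0.224), and *Pax6*, a factor of eye and cortical progenitors, with 0.12 (adjusted p = 0.279). *Emx1* thus lay below 0 and *Emx2* above it, and neither passed.

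**Figure D3:**
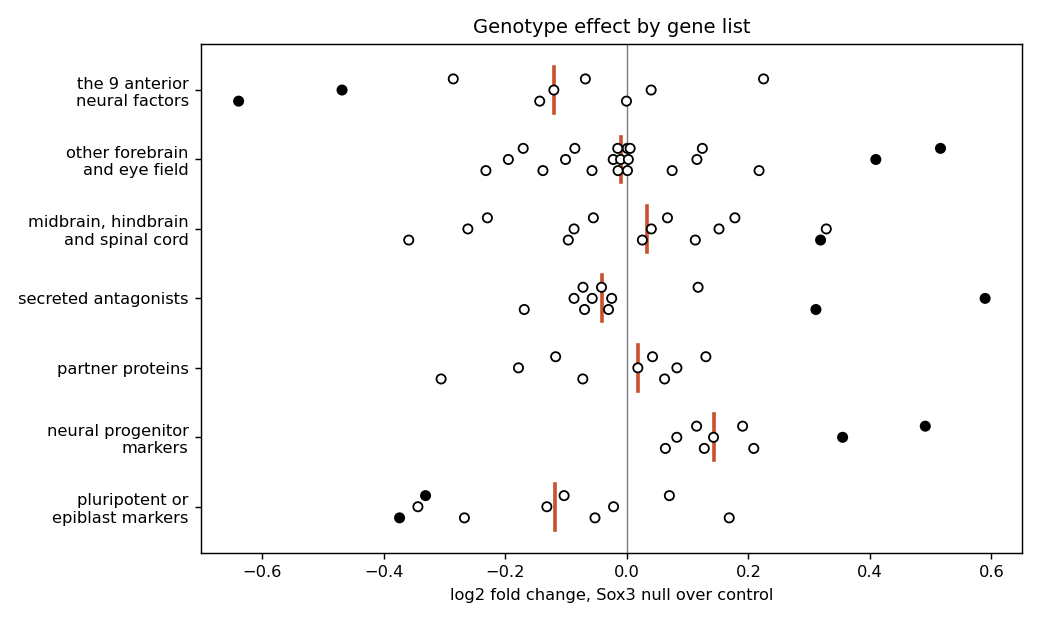
Genotype difference (horizontal axis, log2, null minus control) of every measured gene in 7 lists, fitted over the 8 arrays. Circles stand for genes and are filled for those that passed, vertical offsets only separate the circles, and the orange bar is the median of the list. The median was -0.12 for the 9 factors and -0.01 for the other forebrain and eye field factors, whose filled circles are *Nr2f1* and *Nr2f2*.

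Antagonists of Wnt, Nodal and BMP signalling, most of them secreted, surround and protect the anterior neural plate. Of 11 measured, 2 rose, none fell and 9 did not pass (limma), where 1.15% of all transcript clusters passed as higher and 0.393% as lower. At an unadjusted limma p under 0.05, 2 were higher and 1, *Cer1*, was lower, against 13.1% of all transcript clusters in either direction. *Sfrp2*, a Wnt binding protein gene expressed in neural progenitors, rose by 0.31 (standard error 0.05, adjusted p = 0.00817 from limma). *Sfrp5*, a related gene, rose by 0.59 (standard error 0.11, adjusted p = 0.0199). The rise was 0.84 in batch 1 and 0.34 in batch 2. It no longer passed in 5 of the 8 leave-one-out fits (adjusted p up to 0.0807), those without control replicate 1, 2 or 3 and without *Sox3* null replicate 2 or 4. *Cer1*, a Nodal antagonist gene of the anterior visceral endoderm, had -0.17 (adjusted p = 0.210 from limma). *Shisa2*, which restrains Wnt and FGF receptors, had -0.09 (adjusted p = 0.576), and *Sfrp1* had -0.07 (adjusted p = 0.629). The median of the list was -0.04.

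None of 9 genes for partner proteins passed in limma, and at an unadjusted p under 0.05 there were 3 lower and 1 higher, 4 of 9 against 13.1% of all transcript clusters. TLE corepressors bind SIX3, HESX1 and the FEZF proteins, and LDB1 and LDB2 bridge LIM homeodomain factors such as LHX2. *Ldb2* had -0.31 (adjusted p = 0.142 from limma; -0.09 in batch 1, -0.52 in batch 2), *Tle5* had -0.18 (adjusted p = 0.172) and *Ssbp2*, whose product stabilises LDB1, had 0.13 (adjusted p = 0.267). The range over the list was -0.31 to 0.13.

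Of 14 measured factors of the midbrain, hindbrain and spinal cord, 1 rose, none fell and 13 did not pass, with a median of 0.03. At an unadjusted limma p under 0.05, 5 were higher and 3 lower, 8 of 14 against 13.1% of all transcript clusters. *Irx1*, an Iroquois homeobox gene, rose by 0.32 (standard error 0.07, adjusted p = 0.0489 from limma), and it no longer passed in any of the 8 leave-one-out fits (adjusted p between 0.0564 and 0.142), in the fit with the replicate number as a block (0.0691) and when the arrays were quantile normalised again (0.0793). *Gbx2*, a homeobox gene that opposes *Otx2* at the border of midbrain and hindbrain, had -0.23 (adjusted p = 0.0719). *En2*, a midbrain and cerebellar gene, had 0.33 (adjusted p = 0.074), and *Pax2*, a gene of the same border, had -0.26 (adjusted p = 0.0949). *Otx2* and *Gbx2* therefore both had values below 0 in the null cultures, and that of *Otx2* passed.

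Markers of other cells that the cultures could hold were read beside these results. All 9 neural progenitor markers and all 10 markers of pluripotent or epiblast cells lay above the receptor reference on all 8 arrays. Most named rows clear that reference on each array. The latter list mixes genes of pluripotent cells with those of the epiblast, where *Otx2* is also expressed. Of its 10 genes, 2 fell and 8 did not pass. *Nanog*, a pluripotency factor gene, fell by 0.37 on the log2 scale (adjusted p = 0.0464 from limma). *Dnmt3b*, a DNA methyltransferase gene, fell by 0.33 (adjusted p = 0.0154). *Nanog* no longer passed in 7 of the 8 leave-one-out fits (adjusted p up to 0.152), all but that without control replicate 4, and *Dnmt3b* in the 4 that left out an array of batch 1 (adjusted p up to 0.0699). *Nanog* also did not pass with the replicate number as a block (adjusted p = 0.0718 from limma). At an unadjusted limma p under 0.05, 5 of the 10 were lower and 0 higher, where 13.1% of all transcript clusters differed in either direction. Of the 10 log2 fold changes, 8 were below 0, against 50% of all transcript clusters. The mean log2 signal of the list in batch 1 was 9.85 and 9.86 in control and 9.66 and 9.58 in null cultures. In batch 2 it was 9.81 and 9.69 in control and 9.73 and 9.69 in null cultures. The null arrays thus lay below the control arrays in batch 1, where *Otx2* also had its larger difference, and overlapped them in batch 2. Its part in the fall of *Otx2* was not tested.

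Of the 9 neural progenitor markers, 2 rose, *Nes* for the filament protein nestin (0.49, adjusted p = 0.00947 from limma) and *Zic1*, a neural plate factor gene (0.36, adjusted p = 0.0130), and 7 did not pass. *Zic1* no longer passed without control replicate 1 and without *Sox3* null replicate 1 (adjusted p = 0.0537 and 0.055). The mean of the list ranged from 11.2 to 11.3 in control and from 11.4 to 11.5 in null cultures. None of the 9 had a log2 fold change below 0, against 50% of all transcript clusters. Past an unadjusted limma p of 0.05, 5 were higher and 0 lower, against 13.1% of all transcript clusters. Of 8 endoderm markers none passed in limma, and 4 of the 8 lay above the receptor reference on all arrays. At an unadjusted limma p under 0.05, 1, *Ttr* (-0.12), was lower and 0 were higher, against 13.1% of all transcript clusters. *Gata6* had -0.13. All 8 had a log2 fold change below 0 (median -0.07), against 50% of all transcript clusters. The endoderm mean ranged from 6.81 to 7.07 in control and from 6.72 to 6.99 in null cultures. Of 6 measured mesoderm markers 1 rose, *Twist1* (0.49, adjusted p = 0.00929), which is also expressed in neural crest and mesenchyme, while *Eomes* had -0.26 (adjusted p = 0.388). Of 7 neuronal markers *Map2*, for a microtubule protein, rose (0.47, adjusted p = 0.0132), but not without control replicate 3 or without *Sox3* null replicate 1, and *Tubb3* had 0.31 (adjusted p = 0.0883). At an unadjusted limma p under 0.05, 4 neuronal markers were higher and 1, *Stmn2*, was lower (-0.17), against 13.1% of all transcript clusters. The neuronal mean ranged from 8.88 to 8.97 in control and from 9.02 to 9.26 in null cultures, without overlap. Of 7 fibroblast markers, which feeder cells could bring, *Thy1*, a surface protein gene that is also expressed in other cells, fell by 0.51 on the log2 scale (adjusted p = 0.00525) and *Col1a2* had -0.30 (adjusted p = 0.153). At an unadjusted limma p under 0.05, 3 of the 7 were lower and 1, *Pdgfra*, was higher (0.10), against the same 13.1%. The list had 3 genes below 0 and a median of 0.03. *Lum* and *Postn* of this list were above the receptor reference on no array. The fibroblast mean ranged from 6.79 to 7.0 in control and from 6.61 to 6.89 in null cultures. The part of these markers in the results for the members was not tested. Of the 12 genes of the factor and marker lists that passed, 2 passed without a batch term (*Nr2f1* and *Thy1*) and 5 with batch as a random block (these and *Sfrp2*, *Dnmt3b* and *Twist1*). In the plain linear model and with the unnamed rows added, 3 of the 12 passed (*Nr2f1*, *Nr2f2* and *Sfrp2*).

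The genes whose profile over the 8 arrays was closest to that of *Fezf2* were *Tmem163*, *Sema4f* and *Cldn6*. Likeness was the root mean square difference between values from which each gene's own mean was subtracted, over 8 arrays that share 2 batches and 2 genotypes, so a gene with like genotype and batch differences is near by construction. *Tmem163*, which encodes a zinc transporter, had a difference of 0.08 on the log2 scale, against 0.17 for *Sema4f*, a semaphorin gene, and 0.18 for *Cldn6*, a tight junction gene of early epithelia. *Tmem163* had log2 differences of -0.54 between genotypes and -0.76 between batches, where *Fezf2* had -0.64 and -0.83. *Sema4f* had -0.46 and -0.77, and *Cldn6* had -0.42 and -0.98. All 3 passed for genotype (adjusted p between 6.22e-04 and 0.0149 from limma), and *Cldn6* no longer did in the 4 fits that left out an array of batch 1 (adjusted p up to 0.0663). Without a batch term or with batch as a random block none of the 3 passed (adjusted p between 0.250 and 0.894), and in the plain linear model and with the unnamed rows added *Tmem163* alone passed (0.0334 and 0.0115).

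**Figure D4:**
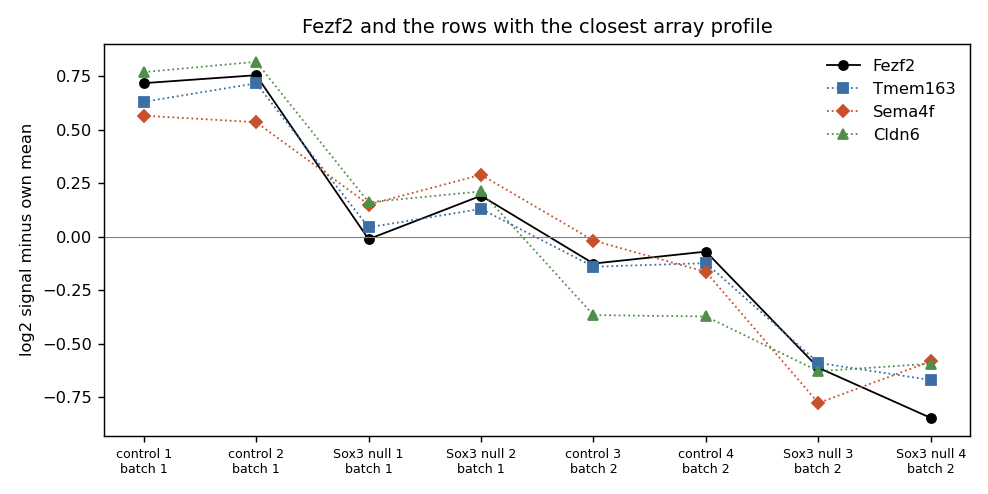
Log2 signal minus the gene's own mean over 8 arrays (vertical axis) for *Fezf2* and the 3 genes nearest to it, on each array (horizontal axis, ordered by batch and genotype). Lines only join the values of a gene. All 4 genes read highest in the control cultures of batch 1 and lowest in the null cultures of batch 2, and *Tmem163* lies 0.08 from *Fezf2* as a root mean square.

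For *Otx2* the nearest were *Car2*, a carbonic anhydrase gene, at 0.10, *Rxrg*, a retinoid receptor gene, at 0.10 and *Ms4a4d* at 0.10. *Car2* had log2 differences of -0.37 between genotypes and 0.27 between batches, *Rxrg* had -0.48 and 0.31, and *Ms4a4d* had -0.40 and 0.28. *Rxrg* and *Ms4a4d* passed for genotype (adjusted p = 0.0379 and 0.0270 from limma) and *Car2* did not (0.108). *Rxrg* and *Ms4a4d* each no longer passed in 6 of the 8 leave-one-out fits, all but those without control replicate 4 and without *Sox3* null replicate 4. Neither passed when batch was left out or made a random block, in the plain linear model or with the unnamed rows added (adjusted p between 0.127 and 0.423), and *Rxrg* did not with the replicate number as a block (0.0710). For *Lhx2* they were *Mbp*, for myelin basic protein, at 0.04, *H2-Q5*, a histocompatibility gene that near-identical family members may share signal with, at 0.05 and *Ceacam20* at 0.05. No member was among the 3 nearest to *Fezf2*, *Otx2* or *Lhx2*, and the nearest genes of the other members were not sought.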

How the data were processed

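Log2 signals of 8 Affymetrix mouse gene arrays were used as deposited, after the authors had normalised and summarised them. Partek is named in the submitters' processing notes. The sources used here give no normalisation, background treatment, summary method or genome build. Of 35556 rows, 23410 had a gene symbol in the platform annotation, 21789 of them 1 symbol, and symbols were updated through the RefSeq gene table. Where several rows carry a symbol, the brightest was used. Genotype and batch were fitted together in limma 3.58.1 (R 4.3.3), since the study's methods describe an analysis of variance that included batch, and the genotype by batch term was fitted separately. P-values were adjusted over all 23410 rows. The steps were tested on simulated arrays. Precision is limited by the number of arrays, with a median residual SD of 0.0869 on the log2 scale. The labels call the cultures independent samples.

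The members and gene lists were chosen with earlier results of these data known. Named were the members, *Sox3*, list genes that passed and up to 3 others of each list with the smallest p, 2 markers of each cell type, and the 3 genes nearest to *Fezf2*, *Otx2* and *Lhx2*. Some listed genes are not reported here. *Lum* and *Postn* were named after their values were seen. Promoter windows are those of RefSeq on GRCm38.p6. Same-numbered arrays of the genotypes deviated together (correlations of deviations from the genotype means between 0.392 and 0.678). So did differently numbered arrays of the same batch (between 0.326 and 0.633). After batch was removed too, the correlations were -0.324 in batch 1 and 0.305 in batch 2. With 2 arrays per genotype and batch, crossing the numbers only turns the sign of such a value. Whether the numbers pair the arrays further than by their batch, which the labels give, is therefore not settled. No pair of arrays shared more than 19 identical values.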

Additional observations from a re-analysis of the deposited data

Results flagged for a closer look

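In the *Sox3* null cultures, *Emx2* on replicate 1 (6.45) lay apart from the other 3 arrays (6.63, 6.64 and 6.65), with a gap of 0.918 of the whole range of the group. It was 1 of 20 such groups of 4 arrays examined (the 9 factors and *Sox3* in each genotype), and chance alone gives about 1 in 20. Without that array the log2 fold change of *Emx2* was 0.26 (adjusted p = 0.102 from limma), against 0.23 with it.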

How the results depend on the processing

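The number of members that passed as lower in *Sox3* null cultures, 2, was 1 over all rows of the table, and 0 when batch was left out or made a random block, in the plain linear model, and in batch 1 or batch 2 alone. The number called, 1, was 0 in the same 5 fits other than that over all rows, and 2 after quantile normalisation and with array weights. Leaving out 1 array gave 1 to 3 that passed and 1 to 2 called. In batch 2, 3 members were lower and 1 higher. The lower ones were 1 after quantile normalisation, in the plain linear model and in each genotype alone, and the higher ones 0 over all rows, in the plain linear model and in control arrays alone. Leaving out 1 array gave 1 to 3 and 0 to 1. With the replicate number as a block in place of batch, *Fezf2* (adjusted p = 0.00266 from limma) and *Otx2* (0.0303) passed and no other member passed. With the numbers crossed within each batch, chosen after seeing the data, 2 members passed as well. Signs turned only for differences near 0. The genotype difference of *Hesx1* was 0.0120 after quantile normalisation, 0.116 in batch 2 alone and -0.0623 to 0.0404 when 1 array was left out, that of *Otx1* was 0.0186 in batch 2 alone, and that of *Rax* was -0.0208 to 0.0899 when 1 array was left out. The batch difference of *Hesx1* was 0.0298 after quantile normalisation, 0.0106 with arrays centred on their medians, 0.0975 in null arrays alone and -0.0807 to 0.0355 when 1 array was left out. That of *Six3* was 0.0115 after quantile normalisation, 0.0117 in control arrays alone and -0.126 to 0.0427 when 1 array was left out, and that of *Otx1* was 0.00146 in null arrays alone. The causes were not tested. *Fezf2* kept its direction in all 22 alternatives for genotype and passed in 17, and *Otx2* kept its direction in 22 and passed in 15. The rows within the receptor reference limit what can be said of *Six3*, *Hesx1* and *Rax*, and of *Emx2*, with 3 of 4 control arrays within it.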
